A study of Homo sapiens with 6 samples.

Results

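The interleukin 1 (IL-1) genes described here are 10 rows of a table of 20289 genes, found by symbol, and all 10 were present. They comprise the ligands IL1A, IL1B, IL18, IL33 and IL36G, the receptor antagonist IL1RN, the receptor subunits IL1R1, IL1RAP and IL1RL1, and the decoy receptor IL1R2. The 6 libraries are labelled as T24, an established human bladder cancer cell line, transfected by lipofection in serum-containing RPMI medium. The plasmid is labelled as Vector, a control, in 3 libraries, and in the other 3 as a pcDNA3.1 plasmid made to overexpress LINC00665, a long non-coding RNA (LINC00665 label). No other agent or allele is named for either group. The stated interest is how LINC00665 acts in the spread of bladder cancer to lymph nodes, here through the expression profile.

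IL-1α and IL-1β bind the receptor IL1R1, which then recruits the shared accessory chain IL1RAP and signals through the adaptor MYD88, IRAK kinases and TRAF6 to NF-kB and MAP kinases. The secreted antagonist encoded by IL1RN occupies IL1R1 without recruiting the accessory chain, and IL1R2 binds ligand but lacks the signalling domain. Pro-IL-1β and pro-IL-18 are cut by caspase-1 in the inflammasome, whereas IL-1α and IL-33 are alarmins released from damaged barrier epithelia such as the urothelium.

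When the labelled line was checked for swapped samples, 3 of 6 libraries failed to match it, so groups are named by label throughout, no comparison can be made without those libraries, and line and plasmid cannot be told apart. LINC00665 has 0 rows in the table and its own level was not analysed here. The expected counts summed to 17289788 to 22725687 per library. Of 13552 genes tested, 63.5% passed an adjusted p of 0.05 by edgeR's quasi-likelihood test (34.2% higher and 29.3% lower under the LINC00665 label), with a median log2 fold change of 0.03. Marker lists of the labelled and of other cell types also differed between labels, and their part in the results was not tested. The 12 urothelial and epithelial markers summed to 1023 to 3189 CPM (read counts relative to library depth, scaled by trimmed mean of M-values) under the Vector label and to 9550 to 11080 CPM under the LINC00665 label. Under the Vector label most of that sum came from KRT8 (836.7 ± 431.6 CPM) and KRT18 (1001 ± 740.2 CPM). KRT18 overlapped between labels and did not pass (edgeR adjusted p = 0.1). The means of KRT5, KRT19, EPCAM, CDH1 and TP63 were 0.0871 to 1.085 CPM under the Vector label. GATA3, a urothelial transcription factor, stood at 0 to 0.103 CPM under the Vector label and 75.3 to 99.5 CPM under the LINC00665 label. The 8 kidney tubule markers summed to 336.5 to 457.6 CPM and 33.3 to 35.7 CPM in that order, with 4 of the 5 tested lower. The nephron gene LHX1 went the other way, from 0.337 ± 0.336 to 18.5 ± 1.37 CPM, and made up most of the sum under the LINC00665 label. Of 17 leukocyte markers, which would mark the blood cells best known for making IL-1β, 9 had 0 counts in all libraries. PTPRC, the pan-leukocyte marker, had 1 count in all 6, and the whole list summed to 10.99 to 17.4 CPM under the Vector and 26.97 to 39.1 CPM under the LINC00665 label, mostly from CD68 (24.5 ± 6.46 CPM under the LINC00665 label). The monocyte markers CD14 and CSF1R stood at 0.284 ± 0.344 and 0 CPM under the Vector label and at 5.18 ± 0.761 and 1.09 ± 0.135 CPM under the LINC00665 label. The 7 fibroblast markers summed to 2.02 to 4.1 CPM and 85.3 to 96.6 CPM, mostly from COL1A1 (1.65 ± 0.396 and 71.3 ± 5.23 CPM), and the 5 endothelial markers to 0.28 to 1.03 CPM and 11.5 to 13.4 CPM. In bulk RNA, fewer cells of a type and less RNA per cell cannot be told apart.

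A set of 6 promoter windows, chosen with the values known, shows the start regions of genes that behaved differently. IL1A, IL1B, IL1RN and IL36G lie in the ligand run of chromosome 2 and were nearly silent under one label and not under the other, while IL1R1 and IL1RAP were expressed under both and did not pass the test. Each window holds 300 bases of RefSeq sequence (GRCh38.p14), from 250 bases before to 50 after an annotated start, written 5′ to 3′ on the gene's strand. Capitals mark matches on either strand to 3 motifs. The AP-1 motif was searched as TGANTCA. The C/EBP motif was searched as TTNCNNAA. The promoter box named after its first letters was searched as TATAAA. No marked motif of these windows overlaps another. The windows are chr2:112784351-112784650 (minus strand, IL1A), chr2:112836730-112837029 (minus, IL1B), chr2:112977756-112978055 (plus, IL36G), chr2:113117721-113118020 (plus, IL1RN), chr2:102142496-102142795 (plus, IL1R1) and chr3:190513835-190514134 (plus, IL1RAP).
IL1A: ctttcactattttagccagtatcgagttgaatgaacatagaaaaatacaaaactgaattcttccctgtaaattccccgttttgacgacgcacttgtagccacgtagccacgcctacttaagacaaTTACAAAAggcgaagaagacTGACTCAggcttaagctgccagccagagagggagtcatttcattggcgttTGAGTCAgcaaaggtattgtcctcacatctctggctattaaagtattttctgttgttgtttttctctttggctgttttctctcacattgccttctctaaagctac
IL1B: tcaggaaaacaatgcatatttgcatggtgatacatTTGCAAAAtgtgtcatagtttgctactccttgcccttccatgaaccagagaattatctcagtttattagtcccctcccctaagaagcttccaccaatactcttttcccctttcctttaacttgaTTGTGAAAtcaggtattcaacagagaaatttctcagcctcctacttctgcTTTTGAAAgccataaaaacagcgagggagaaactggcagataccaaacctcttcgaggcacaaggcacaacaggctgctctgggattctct
IL36G: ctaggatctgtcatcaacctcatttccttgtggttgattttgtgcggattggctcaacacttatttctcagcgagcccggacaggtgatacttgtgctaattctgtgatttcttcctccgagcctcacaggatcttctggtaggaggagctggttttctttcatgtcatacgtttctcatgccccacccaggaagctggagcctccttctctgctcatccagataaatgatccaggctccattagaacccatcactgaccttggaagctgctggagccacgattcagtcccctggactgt
IL1RN: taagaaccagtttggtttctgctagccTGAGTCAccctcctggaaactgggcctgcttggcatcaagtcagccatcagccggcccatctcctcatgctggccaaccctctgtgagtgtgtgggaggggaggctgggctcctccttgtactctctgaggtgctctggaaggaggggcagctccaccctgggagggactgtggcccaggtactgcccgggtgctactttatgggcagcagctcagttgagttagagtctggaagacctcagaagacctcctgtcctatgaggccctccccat
IL1R1: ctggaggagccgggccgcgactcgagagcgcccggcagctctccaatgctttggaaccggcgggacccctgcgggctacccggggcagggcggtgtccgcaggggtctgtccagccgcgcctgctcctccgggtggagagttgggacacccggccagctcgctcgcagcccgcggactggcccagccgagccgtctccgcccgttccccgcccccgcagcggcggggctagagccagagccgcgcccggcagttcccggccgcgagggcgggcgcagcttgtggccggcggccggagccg
IL1RAP: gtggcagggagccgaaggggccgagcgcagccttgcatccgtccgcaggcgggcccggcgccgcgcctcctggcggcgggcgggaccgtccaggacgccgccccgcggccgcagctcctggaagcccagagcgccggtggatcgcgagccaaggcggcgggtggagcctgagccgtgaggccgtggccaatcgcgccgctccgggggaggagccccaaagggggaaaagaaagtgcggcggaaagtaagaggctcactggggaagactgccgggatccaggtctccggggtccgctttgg

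The windows differ in base composition, which is given as a description since they were chosen by the genes' values. GC content was 41.3% for IL1A, 42.3% for IL1B, 49.7% for IL36G and 59.0% for this IL1RN start, against 77.7% for the IL1R1 start shown and 73.7% for IL1RAP. The median over 34943 promoter windows was 58.7%. The IL1R1 and IL1RAP windows held 40 and 36 CpG dinucleotides, and the others 2 to 8, with a median of 14 over all windows. The other 3 windows of IL1R1 had a GC content of 44.3 to 52.7%, within the range of the 4 ligand-run windows shown, so the CpG-rich start is only 1 of its 4, and the files do not show which start was used.

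Motif matches are given beside the share of all windows that held one. RefSeq windows were found for 9 of the 10 genes, 18 windows in all, some overlapping. AP-1 matches were present in 4 of the 18 (7.72% of all windows held one). The IL1A window shown has 2 of them, at 105 and 55 bases before the start, and the second IL1A window overlaps it and holds the same pair. C/EBP matches were present in 10 of the 18 windows (36.9% of all windows), among them the IL1B window with 3, at 215, 91 and 41 bases before the start, and TATAAA matches in 5 (11.6%). The NF-kB motif was found in 0 of the 18 and in 7.72% of all windows. A match is a description of letters in this window, not a bound site.

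Among the agonist ligands, IL1A and IL1B were the most abundant transcripts of the family under the LINC00665 label and close to absent under the Vector label. IL1A (ENSG00000115008, chromosome 2, 112773915 to 112784590 of GRCh38, minus strand) encodes IL-1α. It stood at 0.326, 0.333 and 0.31 CPM in Vector 1 to 3, from 7, 6 and 6 expected counts, and at 1091, 1039 and 898.2 CPM in LINC00665 1 to 3. The groups are far apart. The coefficient of variation was 3.6% under the Vector label and 9.9% under the LINC00665 label. The first rests on too few counts to measure the spread between libraries. On the log2 scale IL1A rose by 11.58 (SE 0.22, edgeR adjusted p = 7.3e-08), a ratio of means of 3122 that rests on 19 counts in all under the Vector label.

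IL1B (ENSG00000125538, chromosome 2, 112829751 to 112836903, minus strand) encodes IL-1β, the precursor cut by caspase-1. Its values were 2.1, 1.22 and 2.07 CPM in the libraries labelled Vector and 1406, 1650 and 1243 CPM in those labelled LINC00665. The groups did not overlap, and Vector 2 was the lowest of its label. On the log2 scale IL1B rose by 9.63 (SE 0.29, edgeR adjusted p = 1.4e-07).

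By rank among the 20289 genes on FPKM (fragments per kilobase, scaled for depth), IL1A moved from 12428th to 12505th place under the Vector label to 142nd to 167th under the LINC00665 label, and IL1B from 10443rd to 11133rd to 71st to 76th. Together they made up 88.7 to 91.7% of the 10 genes' counts in the libraries labelled LINC00665 and 1.66 to 3.11% in those labelled Vector. The 10 genes together took 0.00836 to 0.0134% of all counts under the Vector label and 0.235 to 0.271% under the LINC00665 label.

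IL36G (ENSG00000136688, chromosome 2, 112973203 to 112985665, plus strand) encodes IL-36γ, an agonist made by squamous and other barrier epithelia. It had 0, 0 and 3 counts under the Vector label and 10.3, 16.1 and 6.14 CPM under the LINC00665 label. Every library of the second label lay above every library of the first, and LINC00665 3 was the lowest of its label. The ratio was 212.9 with an exact 95% counting interval of 72.5 to 1035 (edgeR adjusted p = 5.3e-05). The fitted log2 fold change of 7.56 depended on single libraries, since it was 6.97 without Vector 1 and 10.74 without Vector 3, the only Vector library with a count.

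IL18 (ENSG00000150782, chromosome 11, 112143251 to 112164117, minus strand) encodes the other caspase-1 substrate among these genes and differed from its relatives in being expressed under both labels. It stood at 22.8, 18.3 and 20.4 CPM under the Vector label and at 35.8, 36.9 and 31 CPM under the LINC00665 label. The ranges did not overlap, and the difference was small beside that of IL1A and IL1B. IL18 rose by 0.75 on the log2 scale (SE 0.16, edgeR adjusted p = 0.0033), a ratio of means of 1.68.

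IL33 (ENSG00000137033, chromosome 9, 6215786 to 6257983, plus strand) encodes the alarmin that binds IL1RL1. It had 0 counts in 5 libraries and 1 count in LINC00665 3, so it was not tested. With 3 counts over a group as the limit, which is 0.051 CPM under the Vector label and 0.0508 CPM under the LINC00665 label, no difference was detectable at this depth.

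The antagonist gene IL1RN (ENSG00000136689, chromosome 2, 113107214 to 113134016, plus strand) had 1 count in each library labelled Vector. It reached 110.8, 137.3 and 140.8 CPM in the libraries labelled LINC00665, which is 2383, 2614 and 2615 counts. The groups lay far apart. The ratio was 2524 with an exact 95% counting interval of 863.3 to 12240 (edgeR adjusted p = 1e-07). RefSeq gives it 3 promoter windows, and secreted and intracellular forms share one row, so their shares were not measured.

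IL1RN stayed well below the agonists that it opposes. Under the LINC00665 label its FPKM was 4.24, 4.79 and 6.26% of the summed FPKM of IL1A and IL1B. Under the Vector label the figure was 1.81, 2.97 and 1.85%, each from 1 count of IL1RN. The direction of this ratio could not be fixed. On log2(FPKM + 0.1) it was lower under the LINC00665 label by 0.79 (-3.53 ± 0.37 against -4.31 ± 0.29, SD, n = 3, two-sided exact permutation p = 0.1), and with a pseudocount of 0.01 it was higher by 0.82.

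**Figure D1:**
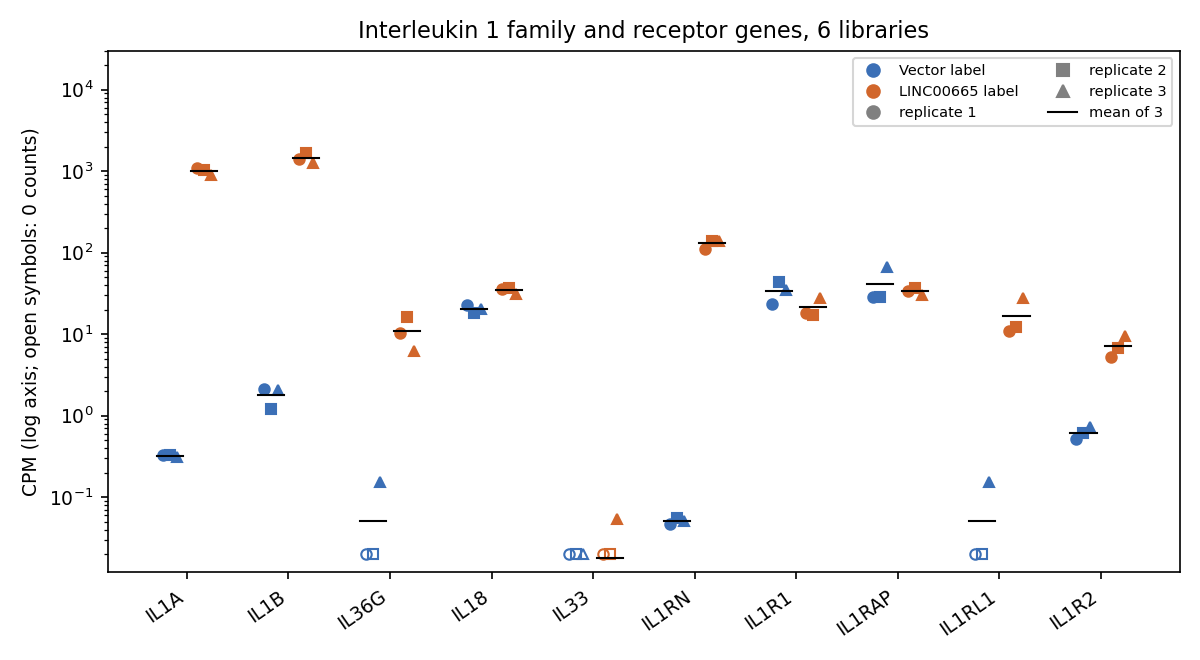
CPM (log axis) of the 10 genes in each of the 6 libraries, ordered as ligands, antagonist, receptor subunits and decoy, with symbols for replicates, a line at each mean of 3, and open symbols for libraries with 0 counts. IL1A, IL1B, IL36G, IL1RN, IL1RL1 and IL1R2 separate widely by label, IL18 by a small step, and IL1R1 and IL1RAP overlap.

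The receptor subunits needed for IL-1 signalling were expressed under both labels and did not pass the test. IL1R1 (ENSG00000115594, chromosome 2, 102064544 to 102179874, plus strand) stood at 23.3, 43.9 and 35.2 CPM under the Vector label and 18.4, 17.2 and 28.2 CPM under the LINC00665 label. LINC00665 3 reached above Vector 1, so the groups overlapped. The log2 fold change was -0.68 (SE 0.28, edgeR adjusted p = 0.06, two-sided exact permutation p = 0.2). This call rests on single libraries, as the adjusted p was 0.022 without Vector 1 (log2 fold change -0.9) and 0.025 without LINC00665 3 (-0.95). With total-count scaling, which shifted the median of all tested genes by -0.16, the value was -0.83 (adjusted p = 0.029), and relative to the median of all genes it was -0.71 with the main scaling and -0.7 with total counts.

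IL1RAP (ENSG00000196083, chromosome 3, 190514051 to 190659750, plus strand), the accessory chain shared by the IL-1, IL-33 and IL-36 receptors, had 29, 29 and 67.4 CPM under the Vector label and 33.8, 36.8 and 30.5 CPM under the LINC00665 label. Vector 3 stood apart from the other 5 libraries, which lie between 29 and 36.8 CPM. The log2 fold change was -0.31 (SE 0.33, edgeR adjusted p = 0.43), and without Vector 3 it was 0.22 (SE 0.15, adjusted p = 0.24), so no direction is given.

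IL1RL1 (ENSG00000115602, chromosome 2, 102311502 to 102352037, plus strand) encodes ST2, the receptor of IL-33. It had 0, 0 and 3 counts under the Vector label and 11, 12.3 and 27.5 CPM under the LINC00665 label. The groups did not overlap, and LINC00665 3 was over the other libraries of its label. The ratio was 325.6 with an exact 95% counting interval of 111.1 to 1582 (edgeR adjusted p = 3.7e-05). The fitted log2 fold change was 8.2, or 7.61 without Vector 1 and 11.38 without Vector 3. Its gene model is overlapped over 99.9% of its length, on the same strand, by that of IL18R1, so reads of these neighbours may have been assigned to either.

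The decoy receptor gene IL1R2 (ENSG00000115590, chromosome 2, 101991844 to 102028544, plus strand) stood at 0.513, 0.611 and 0.724 CPM, from 11, 11 and 14 counts, under the Vector label and at 5.3, 6.72 and 9.58 CPM under the LINC00665 label. The groups did not overlap. On the log2 scale IL1R2 rose by 3.54 (SE 0.33, edgeR adjusted p = 4.1e-05), a ratio of means of 11.7.

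Relative to the signalling receptor, the decoy went from a minor transcript to one at about the same level. IL1R2 FPKM was 8.95, 4.33 and 5.75% of IL1R1 FPKM in Vector 1 to 3 and 77.9, 130.5 and 110.5% in LINC00665 1 to 3. On log2(FPKM + 0.1) the ratio was -3.8 ± 0.51 and 0.06 ± 0.37 (SD, n = 3), a difference of 3.85 (two-sided exact permutation p = 0.1). That is the smallest p that 3 against 3 libraries can give.

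**Figure D2:**
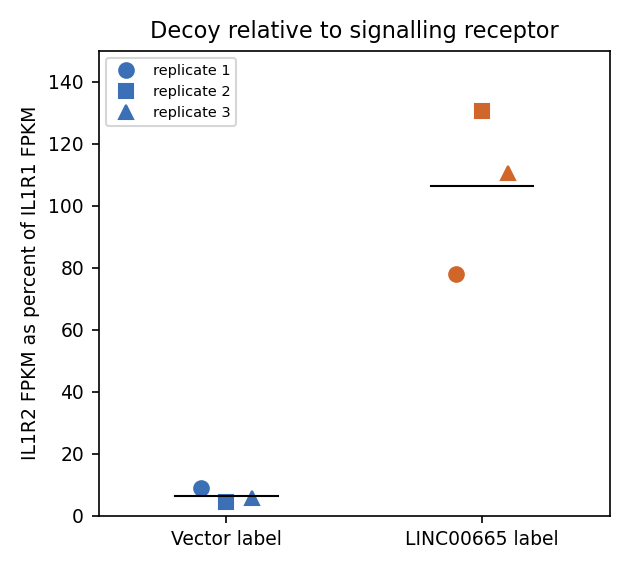
FPKM of the decoy receptor gene IL1R2 as a percent of that of the signalling receptor gene IL1R1, by library (symbols) with the mean of 3 (line). The libraries labelled Vector lie between 4.33 and 8.95% and those labelled LINC00665 between 77.9 and 130.5%.

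In all, 7 of the 9 genes tested rose (IL1A, IL1B, IL1RN, IL18, IL1R2, IL1RL1 and IL36G), 0 fell, and IL1R1 and IL1RAP did not pass, where 34.2% of all tested genes rose and 29.3% fell. At an unadjusted edgeR p under 0.05, 1 of the 9 was lower (IL1R1), and DESeq2 called 0 lower. The same 7 genes had groups that did not overlap and lay higher, against 37.9% of all tested genes that lay higher in this way, 32.3% lower and 70.2% in either direction, and each had a two-sided exact permutation p of 0.1. IL1A, IL1RN, IL1RL1 and IL36G would not have passed the filter on low counts in the libraries labelled Vector alone, so their direction is tied to that filter. IL1B, IL18, IL1R1, IL1R2 and IL1RAP would have passed.

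Ordered by FPKM, the family was turned over between labels. Under the Vector label IL18 led with 20 ± 2.61 FPKM (SD, n = 3), followed by IL1RAP (9.52 ± 4.9) and IL1R1 (8.59 ± 2.44), whose ranges overlapped, and then by IL1B (1.26 ± 0.367), IL1R2 (0.507 ± 0.0513) and IL1A (0.167 ± 0.00577), each apart from its neighbour above. IL36G, IL1RN and IL1RL1 followed at 0.0233 to 0.0567 FPKM with overlapping ranges, and IL33 was listed at 0. Under the LINC00665 label IL1B led with 902.2 ± 103.3 FPKM, then IL1A with 472.5 ± 39.6, IL1RN with 69.3 ± 9.25 and IL18 with 29.4 ± 2.02, all with ranges apart. IL36G and IL1RAP overlapped (9.13 ± 2.98 and 8.02 ± 0.445 FPKM), and IL1R2, IL1RL1 and IL1R1 could not be ordered, at 4.89 ± 1.75, 4.74 ± 2.3 and 4.67 ± 1.46 FPKM. The median tested gene had 9.02 FPKM under the Vector and 9.24 FPKM under the LINC00665 label.

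Among these genes, 7 sit in 2 runs on chromosome 2, and the neighbours of the same families were read in order. The ligand run, from IL1A to IL1RN, spans 112773915 to 113134016 (360.1 kb) and holds 9 genes of the table, all of the family. Of these, 6 were tested and 6 rose, where 34.2% of all tested genes rose. Only IL1B among them would have passed the filter on low counts under the Vector label alone. The direction of the others is tied to that filter. Between the members already described, IL37, an anti-inflammatory cytokine, rose from 0.0794 ± 0.0963 to 1.93 ± 1.26 CPM (SD, n = 3, edgeR adjusted p = 0.0017), with a log2 fold change of 4.41, or 5.86 without Vector 1 and 3.73 without LINC00665 2. IL36RN, the antagonist of the IL-36 receptor, had 0 counts under the Vector label and 2.05 ± 0.271 CPM in the libraries labelled LINC00665, which is at least 40.1-fold higher than 3 counts over the group. IL36A, IL36B and IL1F10 had 0 counts under the Vector label and 1 to 3 counts under the LINC00665 label, too few to tell.

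The genes on either side of the ligand run were expressed under both labels. CKAP2L, a spindle protein gene, stood at 39.9 and 25.7 CPM (log2 fold change -0.64, edgeR adjusted p = 0.017). It lost the call without Vector 1 (0.062), LINC00665 1 (0.064) or LINC00665 2 (0.066). PSD4 stood at 38.6 and 27.2 CPM (-0.5, adjusted p = 0.043). That call was lost without any library but Vector 3 (adjusted p from 0.052 to 0.11), with the replicate block (0.095) and with size factors (0.051), and the sign turned on log2(FPKM + 1), at 0.37 (limma adjusted p = 0.087).

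The receptor run, from IL1R2 to IL18RAP, spans 101991844 to 102452565 (460.7 kb) and holds 6 genes of the table, of which 5 rose and IL1R1 did not pass. Of all tested genes, 34.2% rose. In this run IL1R1, IL1R2 and IL18R1 would have passed the filter on low counts under the Vector label alone. The direction of the others is tied to that filter. The rises of IL1RL1 and IL18R1 may share reads, since their gene models overlap on the same strand. IL1RL2, the IL-36 receptor, had 0 counts under the Vector label and 3.36 ± 0.498 CPM in the libraries labelled LINC00665, which is at least 65.3-fold higher. IL18R1, the ligand-binding chain for IL-18, rose from 1.69 ± 0.641 to 10 ± 0.432 CPM (a change of 2.57 on the log2 scale, SE 0.29, edgeR adjusted p = 0.00012). IL18RAP, its partner chain, had 0 counts and 1.02 ± 0.119 CPM, at least 19.9-fold higher. MAP4K4, the gene before the run, stood at 257 and 295 CPM (log2 fold change 0.2, edgeR adjusted p = 0.43, or 0.43 on the log2 scale with adjusted p = 0.046 without Vector 3). SLC9A4, the gene after it, had 3 counts under each label.

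LINC00665 3 was the highest of its label for 6 of the 6 receptor-run genes, among them IL1R1, IL1R2 and IL1RL1, where 30.9% of all tested genes had that library highest. Among the 6 tested ligand-run genes it was highest for 1 (IL1RN) and lowest for 4. This split was noticed in the values and was not tested. For IL18RAP (22, 17 and 21 counts in LINC00665 1 to 3) and IL18R1 (206, 190 and 194), LINC00665 3 led only after scaling for depth. IL1RL1 and IL18R1 may also share reads.

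**Figure D3:**
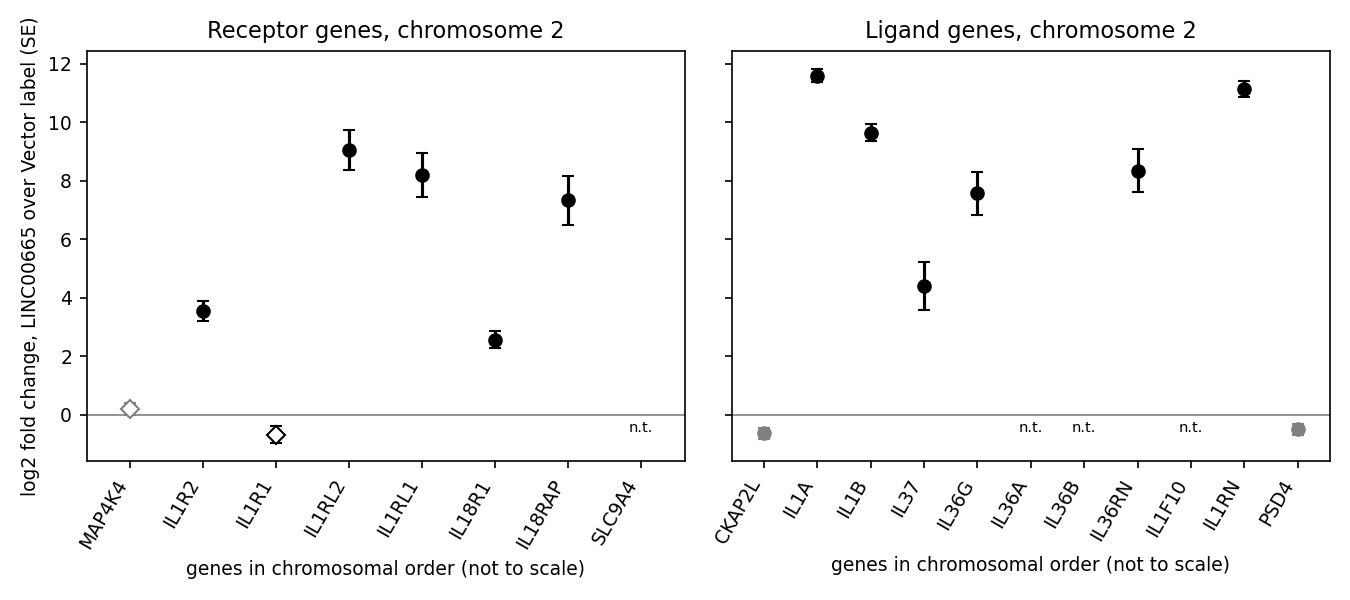
Log2 fold change (LINC00665 over Vector label, with its standard error) of the genes of the receptor run and the ligand run on chromosome 2 and the gene on each side (grey), in chromosomal order and not to scale; filled symbols passed an adjusted p of 0.05, open diamonds did not, and n.t. marks genes not tested. Of the genes inside the runs, 11 of the 12 tested were higher, against 34.2% of all tested genes. Only IL1B, IL1R1, IL1R2 and IL18R1 of these 12 would have passed the filter on low counts under the Vector label alone. The direction of the others is tied to that filter. The tested flanking genes, expressed under both labels, lie between -0.64 and 0.2. Fitted values of genes with 0 to 3 counts under the Vector label depend on the prior count.

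The remaining genes of the family and its receptors were taken from a list of 12, of which 8 were tested. Of these 7 rose and 1 fell, with a median log2 fold change of 5.14, or 4.36 with the 3 genes at 0 counts set at their bound, against 0.03 for all tested genes. The shares were 87.5% higher and 12.5% lower, against 34.2% and 29.3% of all tested genes. Only 3 of the 8 would have passed the filter on low counts under the Vector label alone. SIGIRR, a receptor that restrains IL-1 and Toll-like receptor signalling, rose from 3.67 ± 0.828 to 31.4 ± 3.29 CPM (a change of 3.1 on the log2 scale, SE 0.22, edgeR adjusted p = 7.7e-06). IL18BP, the soluble inhibitor of IL-18, fell from 6.27 ± 0.599 to 3.92 ± 0.995 CPM (-0.67, SE 0.25, edgeR adjusted p = 0.041). The IL18BP call was lost with the replicate block (0.086) and without Vector 1 (0.055), Vector 2 (0.062), Vector 3 (0.073), LINC00665 2 (0.11) or LINC00665 3 (0.13).

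Genes that carry the signal from the receptor were expressed under both labels for the most part, and 15 of 28 rose, 3 fell and 10 did not pass, with a median log2 fold change of 0.68. That is 53.6% higher and 10.7% lower, where 34.2% and 29.3% of all tested genes were. Of the 28, 26 would have passed the filter on low counts under the Vector label alone. The adaptor MYD88 rose from 29.3 ± 7.4 to 73.1 ± 2.33 CPM (1.32, SE 0.2, edgeR adjusted p = 5e-04) and the ubiquitin ligase TRAF6 from 10.2 ± 2.1 to 30.2 ± 2.11 CPM (1.57, SE 0.19, adjusted p = 0.00017). Among the kinase genes of the receptor complex, IRAK2 and IRAK3 rose, and IRAK1 and IRAK4 did not pass. IRAK2 rose from 51.4 ± 11.3 to 1484 ± 113.5 CPM (4.85, SE 0.21, edgeR adjusted p = 6.2e-07). IRAK1 stood at 251.4 ± 53.2 and 265.7 ± 13.3 CPM (adjusted p = 0.72) and IRAK4 at 13.2 ± 3.68 and 9.72 ± 0.617 CPM (adjusted p = 0.14, or 0.012 without Vector 3). IRAK3, an inhibitory member of the kinase family, had 1 count in all under the Vector label and 3.89 ± 0.304 CPM under the LINC00665 label, a ratio of 228.8 (exact 95% counting interval 40.7 to 9076, edgeR adjusted p = 1.7e-05), and the fitted log2 fold change was 7.38, or 9.28 without Vector 2.

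Further along, PELI2, a ligase that acts on IRAK proteins, rose from 0.0811 ± 0.0726 to 7.08 ± 0.397 CPM (edgeR adjusted p = 1.2e-05, log2 fold change 6.29, or 6.88 without Vector 1), and JUN, a subunit of AP-1, from 118.5 ± 45.8 to 1103 ± 211.3 CPM (adjusted p = 4.8e-05). The 3 that fell were MAP3K7, the TAK1 kinase itself (67.7 ± 8.43 to 30.4 ± 1.39 CPM, edgeR adjusted p = 0.00024), its partner TAB1 (50.4 ± 8.79 to 31.9 ± 0.485 CPM, adjusted p = 0.0073) and UBE2V1, a cofactor of ubiquitin chain building (393 ± 35.5 to 215.3 ± 5.74 CPM, adjusted p = 0.00059). The other TAK1 partners of the list, named after their values were seen, rose, TAB2 from 66.8 ± 17.7 to 115.3 ± 11 CPM (edgeR adjusted p = 0.0091) and TAB3 from 31 ± 14.1 to 82.4 ± 6.01 CPM (adjusted p = 0.0062). The endosomal adaptor TOLLIP stood at 48.9 ± 11.3 and 65.4 ± 6.48 CPM (adjusted p = 0.092, or 0.02 without Vector 2).

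Genes of IL-1 processing and the inflammasome were called in both directions. Of 34 in the table (36 listed), 23 were tested, 12 rose, 6 fell and 5 did not pass, with a median log2 fold change of 0.8, and 16 of the 23 would have passed the filter under the Vector label alone. The share higher was 52.2% (34.2% of all tested genes), and the share lower, 26.1%, was near the 29.3% of all tested genes. CASP1, the protease that matures IL-1β and IL-18, had 1 count in all under the Vector label and 17.8, 18.7 and 18.2 CPM under the LINC00665 label, a ratio of 1070 (exact 95% counting interval 191.7 to 42320, edgeR adjusted p = 9e-07), and the fitted log2 fold change was 9.6, or 11.51 without Vector 2. NLRP3, the sensor of the best known inflammasome, rose from 0.945 ± 0.16 to 39.9 ± 5.17 CPM (a change of 5.4 on the log2 scale, SE 0.22, edgeR adjusted p = 4.5e-07). PYCARD, the adaptor that joins sensor and caspase, rose from 0.0875 ± 0.107 to 4.54 ± 0.349 CPM (5.63, SE 0.59, adjusted p = 7.4e-05), and the fitted value was 5.02 without Vector 1 and 7.16 without Vector 3.

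Among the genes of membrane pores and rupture, GSDMD, through which mature IL-1β leaves the cell, stood at 34.4 ± 0.505 and 36.6 ± 2.44 CPM (edgeR adjusted p = 0.59). Its relative GSDMC had 1 count in all and 15.7 ± 1.51 CPM, a ratio of 921.1 (exact 95% counting interval 164.9 to 36420, adjusted p = 1.1e-06), and its fitted log2 fold change was 9.39, or 11.24 without Vector 1. GSDME (21.6 ± 5.05 to 44.2 ± 2.83 CPM, adjusted p = 0.002) and the rupture gene NINJ1 (11.9 ± 3.96 to 66.7 ± 8.6 CPM, adjusted p = 6.8e-05), named after their values were seen, also rose. TXNIP, a thioredoxin-binding protein, rose from 0.184 ± 0.118 to 78.9 ± 15.1 CPM (a change of 8.67 on the log2 scale, SE 0.37, edgeR adjusted p = 5.5e-07). The largest falls of the list were those of 3 inflammasome genes. The sensor NLRP1 went from 14.7 ± 4.65 to 2.02 ± 0.397 CPM (-2.86, SE 0.31, edgeR adjusted p = 8.5e-05), CARD8, a related sensor, from 23.6 ± 2.85 to 10.6 ± 0.702 CPM (adjusted p = 0.00045), and NEK7, which binds NLRP3, from 51.9 ± 12 to 24 ± 5.46 CPM (adjusted p = 0.0029).

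Of 40 genes known to be induced by IL-1, 36 were tested, 26 rose, 2 fell and 8 did not pass, with a median log2 fold change of 2.62. The shares were 72.2% higher and 5.56% lower, against 34.2% and 29.3% of all tested genes. Of the 36, 30 would have passed the filter on low counts under the Vector label alone. The direction of the rest, among them IL11, CXCL6 and CXCL5, is tied to that filter. IL11 (2 counts in all under the Vector label and 74.1 ± 4.86 CPM), CXCL6 (2 counts and 57.8 ± 10.6 CPM) and CXCL5 (3 counts and 76.1 ± 11.6 CPM) had the largest fitted changes, with ratios whose exact 95% counting intervals start at 601.5, 473 and 506.4. The fitted log2 fold change of CXCL5 was 10.37, or 11.23 without Vector 3. IL6 rose from 4.44 ± 3.12 to 105.7 ± 26.5 CPM (4.56, SE 0.58, edgeR adjusted p = 0.00022). The chemokine CXCL8 rose from 143.4 ± 131.4 to 923.2 ± 124.2 CPM (2.69, SE 0.6, edgeR adjusted p = 0.0047), and by 3.74 without Vector 3. NFKBIA, the feedback inhibitor of NF-kB, stood at 184.7 ± 111.1 and 221 ± 44 CPM (0.26, adjusted p = 0.59, or 0.84 with adjusted p = 0.018 without Vector 3). The 2 that fell were LIF, a cytokine of the IL-6 family (444.4 ± 200.9 to 178 ± 52.7 CPM, edgeR adjusted p = 0.014), and the metalloproteinase MMP3 (4.37 ± 1.26 to 0.454 ± 0.406 CPM, adjusted p = 0.0015), which was named after its values were seen. Without LINC00665 2 the log2 fold change of MMP3 was -4.24 in place of -3.27.

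Vector 3 was the highest library of its label for 28 of the 36 response genes (77.8%), where 36.6% of all tested genes had that library highest. IL1RAP, IL1R2, IL1RL1 and IL36G among the 10 family genes were also highest there, whereas IL1A, IL1RN, IL18 and IL1R1 were not, and IL1B stood at 2.07 CPM against 2.1 CPM in Vector 1. Without Vector 3, 31 response genes rose in place of 26, and rises among all genes also went up, from 4634 to 4980. That fit was filtered anew, so these counts are not shares of the same tested genes.

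**Figure D4:**
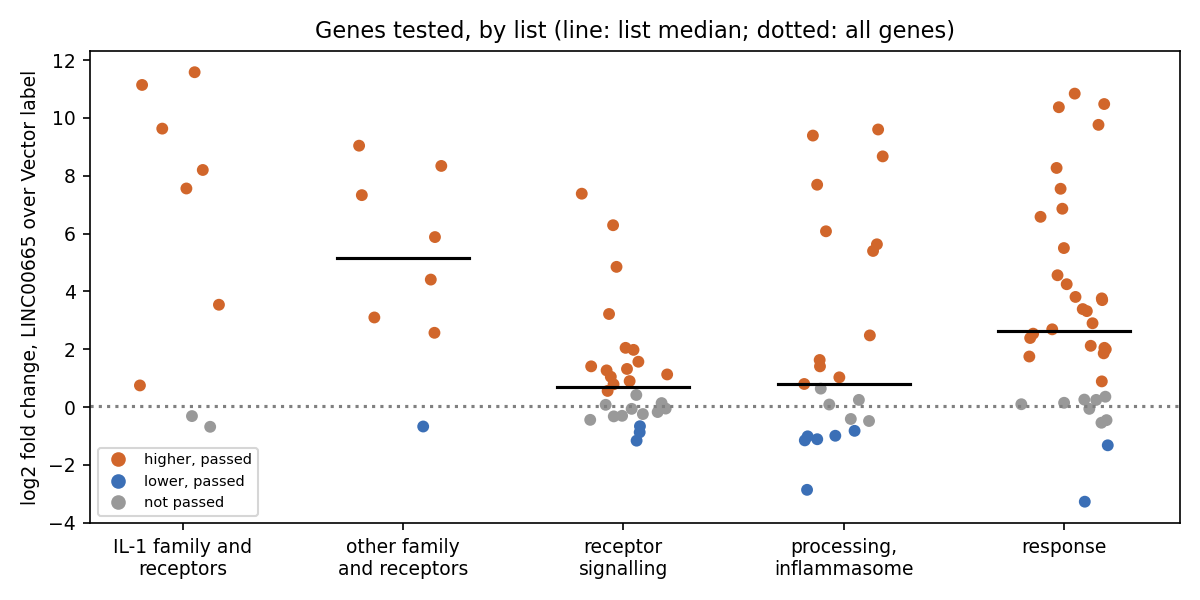
Log2 fold changes (LINC00665 over Vector label) of the tested genes of the family and of the 4 pathway lists, coloured by the call of the test, with list medians (black; 5.14, 0.68, 0.8 and 2.62 from the second column on) and the median of all tested genes (dotted, 0.03). The signalling and processing lists spread to both sides of 0, and most response genes lie above it. From left to right, 5 of 9, 3 of 8, 26 of 28, 16 of 23 and 30 of 36 tested genes would have passed the filter on low counts under the Vector label alone. The direction of the others, and with it the medians, is tied to that filter.

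Across the 6 libraries, S100A9, SERPINB2 and KRT17 had the log2 CPM patterns nearest to that of IL1A, at Euclidean distances of 0.52, 0.59 and 0.61 after centring each gene. Nearest to IL1B were LAD1, LCN2 and LCP1, at 0.32, 0.38 and 0.4. A small distance here requires a similar difference between labels (log2 fold changes of 11.31, 11.77 and 12.11 beside 11.58 for IL1A). It does not show that genes vary together within a label. In LINC00665 1 to 3, KRT17 stood at 909.1, 1159 and 717.4 CPM and IL1A at 1091, 1039 and 898.2 CPM. S100A9, a calcium-binding protein, stood at 0.543 ± 0.117 and 1402 ± 109.4 CPM, and SERPINB2, a plasminogen activator inhibitor, at 0.49 ± 0.0923 and 1742 ± 157.6 CPM. LCN2, an iron-binding lipocalin that is also among the response genes, stood at 3.81 ± 0.776 and 3303 ± 603.8 CPM. LAD1, an anchoring filament protein, had 2 counts in all under the Vector label and 117.9 ± 12.6 CPM under the LINC00665 label. The log2 CPM used here carry a prior count of 2, which raises values as low as those of LAD1 and draws its pattern towards genes with smaller fitted changes, such as IL1B (9.63 against 11.51 on the log2 scale).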

How the data were processed

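RNA was sequenced from 6 libraries, 3 per label, with an Illumina TruSeq RNA kit after TRIzol extraction, per the labels' protocols. HISAT2 2.0.4 and the hg38 build are named, without a role, per the submitters' processing notes. Not given in the sources used here are the counting tool, its annotation and any use of strand. The authors deposited expected counts per gene, not normalised (88.3 to 89.4% whole), and FPKM values normalised by the authors for length and depth, per the file headers. The length used for a gene was not the same in all libraries. PSD4, for example, went from 38.6 to 27.2 CPM between labels but from 3.62 to 4.94 FPKM. FPKM ratios and orders carry this limit.

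Expected counts were rounded, filtered with filterByExpr, scaled by trimmed mean of M-values and then fitted by the quasi-likelihood method of edgeR 4.0.16 (R 4.3.3), with Benjamini-Hochberg adjustment over 13552 genes and a threshold of 0.05. CPM use the scaled library sizes. With 1 to 3 counts in a group, an exact 95% binomial interval of the ratio is given; with 0, a bound against 3 counts over the group; both cover counting error only. The series' design text speaks of 3 independent experiments, without saying whether these were separate cultures; if not, p-values measure technical spread only. Chi-square per degree of freedom between libraries of a label was 9.85 to 116, so none was treated as a duplicate. Positions come from GENCODE v29 (GRCh38, the assembly of hg38), promoter windows from RefSeq.

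The genes and lists were chosen with earlier results of these data known. Named list genes were the 3 largest changes per direction past the threshold at 5 CPM or more in the higher group, plus preset core genes, genes of the chromosome 2 runs and the 3 nearest patterns. Alternatives were DESeq2 1.42.0, limma 3.58.1 on log2(FPKM + 1), other scalings and filters, a stricter threshold, the replicate block and leaving out each library. The count test was checked on simulated data.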

Additional observations from a re-analysis of the deposited data

How the results depend on the processing

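Of 186 recomputed counts and ratios, 168 stayed within the spread or within 1.5 times of the value given. Of 117 recomputed log2 fold changes of the family genes, 112 kept direction and call. The 7 rises held under each alternative run. Their size did not: on log2(FPKM + 1), whose pseudocount compresses low values, limma gave 8.66 for IL1A (11.58 with edgeR), 8.65 for IL1B (9.63), 6.08 for IL1RN (11.14), 3.22 for IL36G (7.56), 2.42 for IL1RL1 (8.2) and 1.93 for IL1R2 (3.54). The count of family genes that fell went from 0 to 1 (IL1R1) with total-count scaling and with limma on log2(FPKM + 1), where IL1R1 was at -0.75, and ranged from 0 to 1 over the fits that left out a library. IL1RAP ranged from -0.52 without Vector 1 to 0.22 without Vector 3. Rises among the other family genes dropped from 7 to 3 with a minimum mean of 1 CPM, since fewer genes were tested. Their single fall (IL18BP) became 0 with the replicate block and at an adjusted p of 0.01, and ranged from 0 to 1 when leaving out libraries. Falls among signalling genes went from 3 to 5 with total-count scaling, and falls among all genes from 3977 to 4770. That scaling shifted the median log2 fold change of all tested genes by -0.16, and rises among all genes went from 4634 to 4174. The part of that shift in the counts of falls was not tested. Falls among response genes went from 2 to 1 at an adjusted p of 0.01, since that of LIF lies above this threshold. The log2 ratio of IL1RN to IL1A plus IL1B differed by -0.79 between labels, by -3.07 with FPKM + 1, by -0.39 on CPM + 0.1 (exact permutation p = 0.3) and by 0.82 with FPKM + 0.01. IL1RN stood at 0.03 FPKM under the Vector label, so the larger pseudocounts exceed it. The ratio of IL1R2 to IL1R1 differed by 3.85, and by 2.68 with FPKM + 1.

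The replicate number did not pair the libraries. Same-numbered libraries had correlations of deviations of 0.152, -0.132 and -0.154. The replicate block gave 7 higher and 0 lower family genes, as without it, and 4419 higher and 3505 lower genes in all against 4634 and 3977. Not every library correlated best with its own number.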
